A study of Homo sapiens with 12 samples.

Results

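The regulators that build and hold the melanocyte state, together with the receptors and factors that mark its loss, were followed as a group of 10 genes: MITF, SOX10, SOX9, SOX5, PAX3, TFAP2A, LEF1, RXRG, NGFR and AXL. They were taken by gene symbol from the 44700 genes of the count tables, and all 10 had enough counts to be tested. Total RNA came from cultured human melanoma cells of established lines, MALME-3M and SK-MEL-5 (wild type per their labels), without treatment or after interferon gamma (IFN-γ) from the time of seeding. The 12 libraries formed 4 groups of 3: untreated SK-MEL-5, SK-MEL-5 with 150 ng/mL IFN-γ for 24 h, untreated MALME-3M, and MALME-3M with 200 ng/mL IFN-γ for 24 h. Each line stems from 1 patient's tumour, and the lines were grown in different media with different amounts of serum, so line, medium and dose cannot be told apart. Libraries of a group came from wells seeded in triplicate, and p-values measure only the spread between such wells.

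MITF is the basic helix-loop-helix factor that switches on pigment enzymes and melanosome genes in melanocytes. SOX10, PAX3 and LEF1 act at the promoter from which the melanocyte form of MITF is made, and TFAP2A works beside MITF at many of its target genes. Melanoma cells can leave this differentiated state: cells with little MITF and SOX10 often carry SOX9 and the receptor tyrosine kinase AXL, and an intermediate state like the neural crest stem cell is known for NGFR, the low-affinity nerve growth factor receptor, and for the retinoid receptor RXRG.

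In both lines MITF and SOX10 were high, and NGFR and AXL were low. MITF stood at group means of 590 to 622 CPM (counts scaled by TMM library size to a common total, the unit of all levels here) and did not pass the test in any comparison of gene counts. IFN-γ raised TFAP2A 1.4-fold in SK-MEL-5 and 1.39-fold in MALME-3M, lowered RXRG and SOX5 in SK-MEL-5, and raised NGFR, from a very low level, in MALME-3M. The lines differed most in SOX9, which was near 0 in MALME-3M, and in AXL, which was near 0 in SK-MEL-5.

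Among annotated MITF transcripts, which cover only part of its gene counts, the shares of the start sites turned out to differ between the lines. The sequences upstream of its main start sites are therefore shown, from RefSeq on GRCh38.p14, plus strand, 5′ to 3′. The melanocyte (M) start lies at chr3:69936592 in that table, and the stretch shown, chr3:69936342-69936561, runs from 250 to 31 bases before it. The distal (A) start lies at chr3:69739464, and the stretch shown is chr3:69739214-69739433, at the same distances. Capitals mark matches to letters searched on both strands.
MITF M promoter: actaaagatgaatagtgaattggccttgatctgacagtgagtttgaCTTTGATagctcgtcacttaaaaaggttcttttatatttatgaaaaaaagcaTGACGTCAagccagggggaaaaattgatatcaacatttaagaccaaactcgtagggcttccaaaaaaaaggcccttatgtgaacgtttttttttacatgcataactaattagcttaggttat
MITF A promoter: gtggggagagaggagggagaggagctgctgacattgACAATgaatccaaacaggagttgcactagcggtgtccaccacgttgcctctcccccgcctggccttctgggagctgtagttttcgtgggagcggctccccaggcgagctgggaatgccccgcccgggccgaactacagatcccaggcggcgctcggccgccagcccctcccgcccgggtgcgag
The M stretch held CTTTGAT, the core bound by LEF1 and its TCF relatives, at -204 to -198, and the cyclic AMP response element TGACGTCA at -152 to -145. Of 35116 promoter windows of the same length (250 bases before a start), 2.26% held the former and 1.65% the latter. In the A stretch, the match was the SOX core ACAAT at -214 to -210, which 24.6% of windows held. Of the 11 entries of the 7 members with one, 0 held the M-box core TCATGTG (2.52% of windows). The interferon-stimulated element letters GAAA, any 2 bases, GAAA, held by 3.02% of windows, occurred once among them, 188 to 179 bases before an internal start of AXL at chr19:41226755. A match of letters is not a binding site, and SOX10, SOX9 and NGFR had no entry in the table.

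The start sites also change the protein's first residues, as the opening 30 coding bases of an M-start transcript and an A-start transcript show (GENCODE 29, GRCh38, the start codon in capitals).
MITF-201, from the M start: ATGctggaaatgctagaatataatcactat
MITF-204, from the A start: ATGcagtccgaatcggggatcgtgccggat
MITF-201 has a coding length of 1239 bases beginning at chr3:69936723, and MITF-204 one of 1560 bases beginning at chr3:69739598. The coding starts lie in different exons, and the later exons, which encode the DNA-binding part, are shared.

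MITF spans chr3:69739435-69968337 on the plus strand. Untreated SK-MEL-5 libraries had 626, 614 and 562 CPM of MITF and treated ones 606, 597 and 611. Untreated MALME-3M libraries had 561, 597 and 611 CPM and treated ones 673, 636 and 556. The groups overlapped throughout, and the highest and the lowest library were both treated MALME-3M. The log2 fold change with IFN-γ was 0.01 ± 0.060 (SE; 95% interval -0.12 to 0.13) in SK-MEL-5 and 0.08 ± 0.060 (-0.05 to 0.20) in MALME-3M, with adjusted p of 0.957 and 0.442 in edgeR's quasi-likelihood test. Between the lines it was -0.03 ± 0.060 untreated and 0.04 ± 0.060 treated. A p above the threshold does not show equality, and the intervals bound what these libraries could have missed. In bulk RNA, a change in the number of cells that express a gene and a change per cell cannot be told apart.

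**Figure D1:**
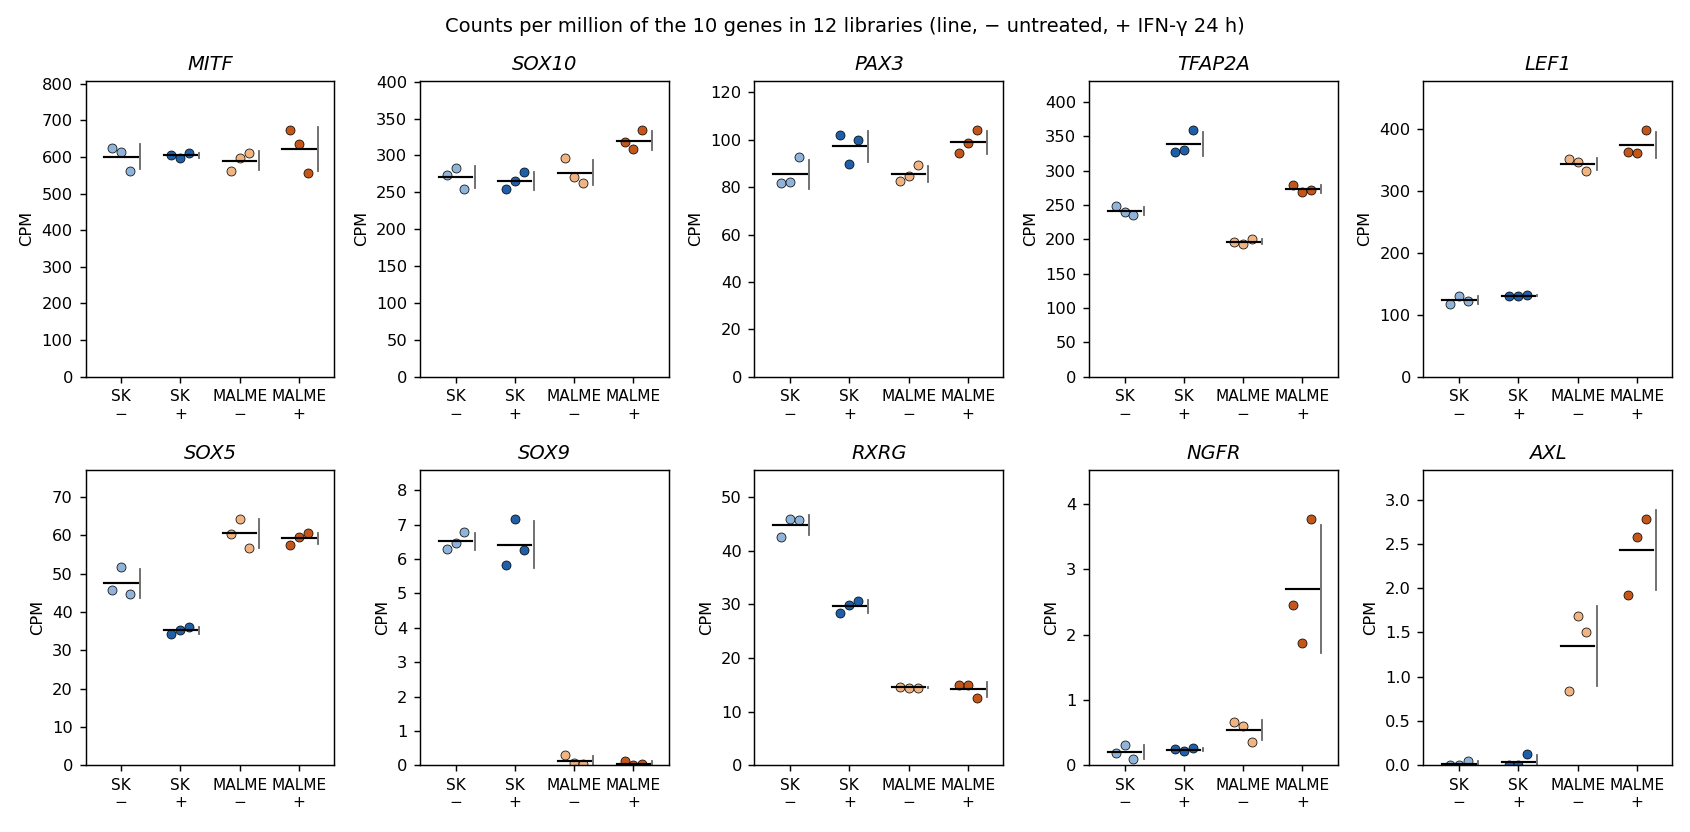
CPM (linear axes from 0) of the 10 genes in each of 12 libraries, by line and treatment (SK, SK-MEL-5; MALME, MALME-3M; − untreated, + IFN-γ for 24 h); points are libraries, horizontal bars group means, and grey lines ± 1 SD, cut at 0. MITF lies level across the groups (means 590 to 622), while SOX9 is at 6.52 and 6.41 in SK-MEL-5 against 0.138 and 0.0550 in MALME-3M.

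By start site, the annotated MITF transcripts differed between the lines. Estimated counts of the annotated MITF transcripts were summed by start site, with starts within 500 bases merged. Transcripts from the distal A start took 12.8%, 16.4% and 22.1% of them in untreated SK-MEL-5 and 13.7%, 13.9% and 15.7% in treated SK-MEL-5. In MALME-3M the same start took 49.4%, 41.1% and 47.7% untreated and 44.4%, 42.7% and 48.3% treated. Every MALME-3M library lay above every SK-MEL-5 library, and within a line the treated and untreated libraries overlapped. The M start held 80.6% ± 4.3 (SD, n = 3) and 83.7% ± 0.68 in untreated and treated SK-MEL-5, and 51.4% ± 3.8 and 51.3% ± 2.9 in untreated and treated MALME-3M.

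Fitted across 25253 start-site groups of all genes, the A start of MITF was higher in MALME-3M by a log2 fold change of 1.91 ± 0.16 untreated (edgeR adjusted p = 5.14e-06) and 2.28 ± 0.16 treated (adjusted p = 1.54e-06). In the same fit 16.2% of start-site groups were called higher in untreated MALME-3M and 15.6% in treated MALME-3M. The M start differed by -0.18 ± 0.097 untreated (adjusted p = 0.200) and -0.07 ± 0.097 treated (adjusted p = 0.623), neither called. With IFN-γ, neither start was called: the A start had log2 fold changes of -0.27 ± 0.16 in SK-MEL-5 and 0.10 ± 0.15 in MALME-3M, the M start 0.02 ± 0.097 and 0.12 ± 0.097. This fit was chosen after the shares had been seen. The estimated counts of annotated transcripts came to 26.2% to 29.2% of MITF's gene counts in SK-MEL-5 and 39.0% to 45.6% in MALME-3M. The part of MITF these shares cover thus differed between the lines compared, and its part in the result was not tested. Transcripts assembled by the authors were not tied to genes here, and reads of shared exons are divided by estimation. Summed over annotated transcripts, MITF as a whole was higher in MALME-3M, with log2 fold changes of 0.54 untreated (adjusted p = 2.84e-05) and 0.68 treated (adjusted p = 4.06e-06), which the gene counts did not show.

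**Figure D2:**
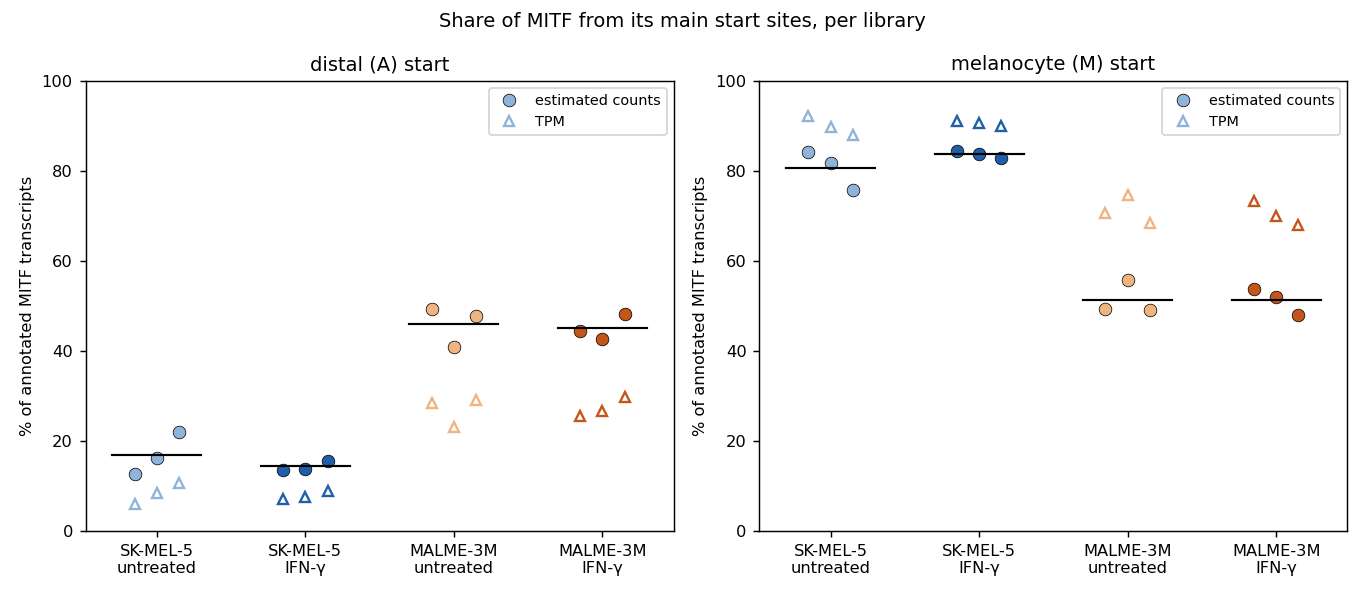
Percent of annotated MITF transcripts from the distal (A) start and from the melanocyte (M) start in each of 12 libraries, by estimated counts (circles, group means as bars) and by TPM (triangles). The A start takes 17.1% and 14.4% of estimated counts in SK-MEL-5 and 46.1% and 45.1% in MALME-3M (untreated and treated means); by TPM, which weights for transcript length, the shares are lower and again higher in every MALME-3M library than in any SK-MEL-5 library.

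SOX10 (chr22:37970686-37987422, minus strand), the neural crest factor that melanocytes need throughout life, had 274, 283 and 255 CPM in untreated and 254, 265 and 278 in treated SK-MEL-5. MALME-3M had 296, 271 and 263 CPM untreated and 318, 308 and 334 treated, and these treated libraries lay above all others. SOX10 rose with IFN-γ in MALME-3M (log2 fold change 0.21 ± 0.055, adjusted p = 0.0111) and had -0.03 ± 0.055 (adjusted p = 0.835) in SK-MEL-5. The difference of these changes, 0.24 ± 0.078, was not called (adjusted p = 0.103). SOX10 did not pass between the untreated lines (0.03 ± 0.055, adjusted p = 0.602) and was higher in treated MALME-3M than in treated SK-MEL-5 (0.27 ± 0.055, adjusted p = 0.000235). The rise in MALME-3M lost its call without untreated library 2 (0.19, adjusted p = 0.0529), untreated library 3 (0.17, 0.0688) or treated library 3 (0.16, 0.0989). POLR2F lies opposite SOX10 with 1925 to 3194 counts per library, and without a stated strand setting the reads of such partners cannot be told apart. One start site held 97.8% to 98.5% of SOX10's annotated estimated counts in each group.

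PAX3 (chr2:222199888-222298996, minus strand), the paired-box factor that works with SOX10 on MITF, had 81.7, 82.2 and 92.6 CPM in untreated and 102, 89.9 and 99.9 in treated SK-MEL-5, with overlap. In MALME-3M it had 82.7, 84.9 and 89.2 CPM untreated and 94.4, 98.6 and 104 treated, with no overlap. PAX3 rose in MALME-3M (0.21 ± 0.064, adjusted p = 0.0275). In SK-MEL-5 the log2 fold change was 0.18 ± 0.064 and missed the threshold (adjusted p = 0.0670), and the difference of the changes was 0.03 ± 0.090. Between the lines the log2 fold changes were 0.00 untreated and 0.03 treated. The call in MALME-3M was lost without untreated library 1 (adjusted p = 0.108) or 2 (0.0814) or treated library 2 (0.0613) or 3 (0.163), and under upper-quartile scaling (0.0551). In SK-MEL-5 a call appeared with DESeq2 (0.0412) or without untreated library 3 (0.0209), treated library 2 (0.0301) or treated MALME-3M library 1 (0.0354) or 3 (0.0272). Annotated transcripts held 10.3% to 17.9% of PAX3's gene counts, and in their sums the change in MALME-3M was 0.19 with an adjusted p of 0.692.

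TFAP2A (chr6:10393186-10419659, minus strand), which encodes the AP-2α factor of neural crest and melanocyte chromatin, was the member that rose in both lines. Untreated SK-MEL-5 had 248, 240 and 236 CPM and treated SK-MEL-5 327, 330 and 359. Untreated MALME-3M had 197, 193 and 200 CPM and treated MALME-3M 280, 269 and 272. All treated libraries lay above all untreated ones, across both lines. The log2 fold changes were 0.49 ± 0.046 (adjusted p = 2.36e-07) and 0.48 ± 0.046 (adjusted p = 3.56e-07), and their difference was -0.01 with a 95% interval of -0.15 to 0.13. TFAP2A was lower in MALME-3M, by a log2 fold change of -0.29 ± 0.046 untreated (adjusted p = 1.3e-05) and -0.31 ± 0.046 treated (adjusted p = 7.64e-06). Annotated transcripts, 30.1% to 38.6% of its gene counts, gave -0.04 (adjusted p = 0.571) for the untreated lines. Its leading start site held 49.3% ± 11, 48.9% ± 1.6, 47.0% ± 4.7 and 47.0% ± 2.5 of these in the 4 groups, in the order untreated and treated SK-MEL-5, untreated and treated MALME-3M. The antisense gene TFAP2A-AS1 had 31 to 112 counts per library.

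Among 15810 genes tested, 5.98% were called higher and 7.05% lower with IFN-γ in SK-MEL-5, and 9.51% higher and 8.77% lower in MALME-3M. The SK-MEL-5 split of 946 higher and 1114 lower became 1062 and 809 when the MALME-3M libraries were left out of the fit. Of the 10 members, 1 was called higher (TFAP2A) and 2 lower (SOX5, RXRG) in SK-MEL-5, and 4 were called higher (TFAP2A, SOX10, PAX3, NGFR) and none lower in MALME-3M. At an unadjusted edgeR p below 0.05, 0 members were lower in MALME-3M, and DESeq2 called 0. The median log2 fold change over all genes was -0.03 in SK-MEL-5 and 0.00 in MALME-3M.

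LEF1 (chr4:108047545-108168956, minus strand), a DNA-binding partner of β-catenin in WNT signalling, separated the lines. It had 118, 131 and 123 CPM in untreated and 130, 131 and 132 in treated SK-MEL-5, against 351, 347 and 332 in untreated and 363, 362 and 398 in treated MALME-3M. The lines did not overlap: the lowest MALME-3M library, at 332 CPM, lay above the highest of SK-MEL-5, at 132. LEF1 was higher in MALME-3M by a log2 fold change of 1.47 ± 0.052 untreated (adjusted p = 4.93e-15) and 1.52 ± 0.052 treated (adjusted p = 3.15e-15). With IFN-γ it had 0.08 ± 0.051 in SK-MEL-5 and 0.13 ± 0.050 in MALME-3M, neither called (adjusted p = 0.355 and 0.0934).

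SOX5 (chr12:23529500-24562544, minus strand), a SOX factor without an activation domain that can oppose SOX10 at its target genes, fell in SK-MEL-5. Its CPM were 45.8, 51.8 and 44.7 untreated and 34.2, 35.3 and 36.0 treated, without overlap. In MALME-3M it had 60.4, 64.2 and 56.7 CPM untreated and 57.5, 59.4 and 60.5 treated, with overlap. The log2 fold change was -0.43 ± 0.067 (adjusted p = 0.000143) in SK-MEL-5 and -0.03 ± 0.065 (adjusted p = 0.814) in MALME-3M, and the changes differed (0.40 ± 0.093, adjusted p = 0.0159). Without treated MALME-3M library 3 that difference was 0.34 with an adjusted p of 0.0710. SOX5 was higher in MALME-3M both untreated (0.35 ± 0.065, adjusted p = 0.000104) and treated (0.75 ± 0.066, adjusted p = 6.21e-09). Sums of annotated transcripts gave -0.51 for SK-MEL-5 (adjusted p = 0.0803) and 0.41 for the difference (adjusted p = 0.468).

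SOX9 (chr17:72121020-72126420, plus strand), the SOX factor of cartilage and of undifferentiated neural crest cells, was read in SK-MEL-5 at 6.30, 6.46 and 6.79 CPM untreated and 5.82, 7.16 and 6.25 treated. MALME-3M had 5, 1 and 1 counts of SOX9 untreated and 2, 0 and 1 treated. The untreated lines differed by a log2 fold change of -5.54 ± 0.38 (adjusted p = 1.35e-10). Treated SK-MEL-5 had 348 counts against 3 in treated MALME-3M, a ratio per library size of 129 with a 95% Clopper-Pearson interval of 43.6 to 627 that covers counting error only. IFN-γ gave -0.02 ± 0.22 in SK-MEL-5 (adjusted p = 0.972), and the few counts in MALME-3M allowed no statement there: 7 counts in the untreated and 3 in the treated group.

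**Figure D3:**
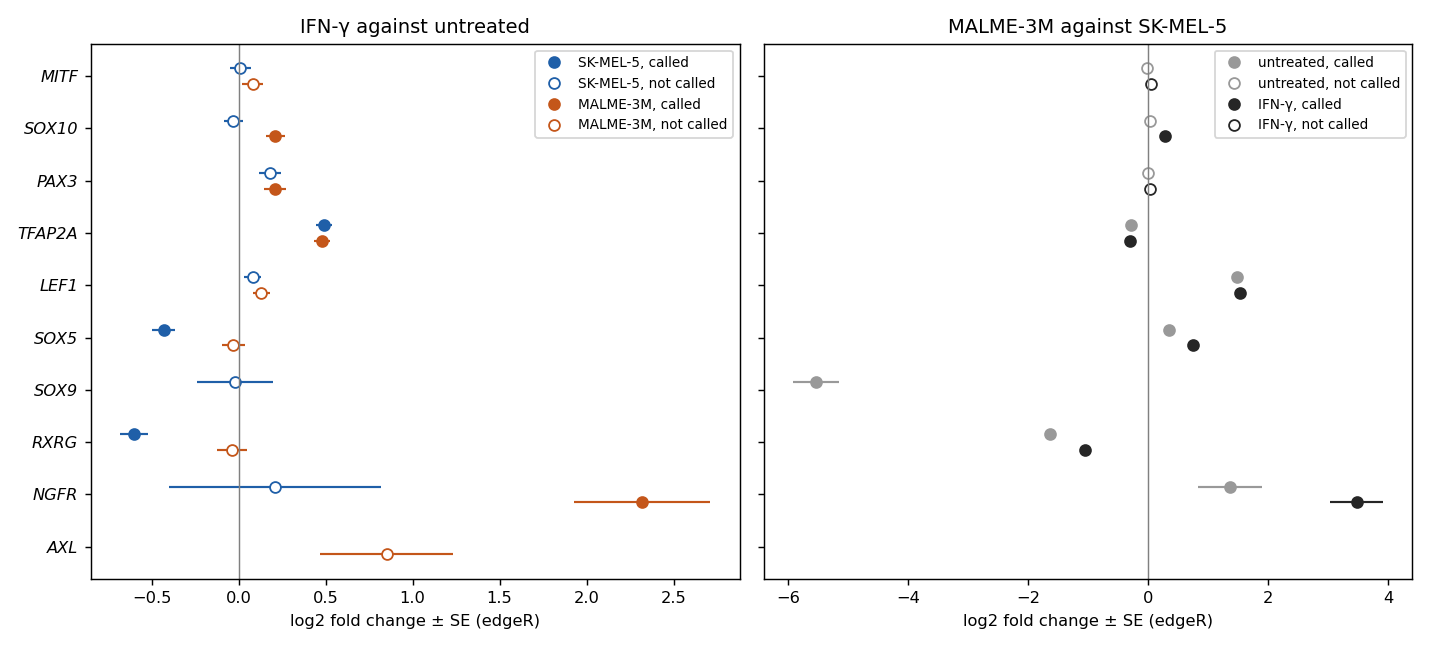
Log2 fold change ± SE (edgeR) of the 10 genes with IFN-γ in each line (left) and between the lines without and with IFN-γ (right); filled points are called at an adjusted p below 0.05. Values that rest on 3 or fewer counts in a group are left out (AXL in SK-MEL-5 and between the lines, SOX9 in MALME-3M and between the treated lines). TFAP2A rises by 0.49 and 0.48 on the log2 scale, and RXRG and SOX5 fall in SK-MEL-5.

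RXRG (chr1:165400917-165445355, minus strand), the retinoid X receptor γ, had the larger of the called falls. SK-MEL-5 had 42.6, 45.9 and 45.8 CPM untreated and 28.4, 29.8 and 30.7 treated. MALME-3M had 14.6, 14.5 and 14.5 CPM untreated and 15, 15 and 12.6 treated. All SK-MEL-5 libraries, treated or not, lay above all MALME-3M libraries. RXRG fell in SK-MEL-5 (-0.60 ± 0.080, adjusted p = 2.66e-05), had -0.04 ± 0.087 in MALME-3M (adjusted p = 0.836), and the changes differed (0.56 ± 0.12, adjusted p = 0.00773). Over all genes this difference (MALME-3M minus SK-MEL-5) was called above 0 for 2.67% and below 0 for 1.79% (422 and 283 genes; 340 and 351 with upper-quartile scaling). Above 0 were 2 members, RXRG and SOX5. The lines differed by -1.63 ± 0.084 untreated (adjusted p = 1.81e-12) and -1.06 ± 0.084 treated (adjusted p = 1.11e-09). In sums of annotated transcripts the difference of the changes was 0.49 with an adjusted p of 0.256, and 0 members were called there.

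NGFR (chr17:49495293-49515017, plus strand) was barely read in SK-MEL-5, with 3, 7 and 2 counts untreated and 5, 4 and 4 treated. MALME-3M had 11, 10 and 7 counts untreated and 41, 40 and 84 treated, or 0.661, 0.603 and 0.364 CPM against 2.46, 1.87 and 3.77. All treated MALME-3M libraries lay above all others, with treated library 3 the highest. NGFR rose in MALME-3M by a log2 fold change of 2.32 ± 0.39 (adjusted p = 0.000244), and SK-MEL-5 had 0.21 with a 95% interval of -1.07 to 1.49. The difference of the changes, 2.11 ± 0.75, was not called (adjusted p = 0.132). NGFR was higher in MALME-3M untreated (1.36 ± 0.53, adjusted p = 0.0292) and treated (3.47 ± 0.44, adjusted p = 8.29e-07). The untreated call was lost without untreated SK-MEL-5 library 1 (1.31, adjusted p = 0.0610) or 3 (1.03, 0.115) or untreated MALME-3M library 1 (1.19, 0.0899) or 2 (1.27, 0.0708). After its rise NGFR stood at 2.70 ± 0.97 CPM, and MITF in the same libraries at 622 ± 60.

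AXL (chr19:41219203-41261766, plus strand) had 0, 0 and 1 counts in untreated and 0, 0 and 2 in treated SK-MEL-5, and 14, 28 and 29 in untreated and 32, 55 and 62 in treated MALME-3M. Untreated MALME-3M had 71 counts against 1, a ratio per library size of 78.4 (13.6 to 3140, interval as above), and treated MALME-3M 149 against 2, a ratio of 67.2 (18.3 to 560). Within MALME-3M the libraries had 0.842, 1.69 and 1.51 CPM untreated and 1.92, 2.58 and 2.78 treated. These did not overlap, but the log2 fold change of 0.85 ± 0.38 was not called (adjusted p = 0.142). At these depths 3 counts over a group correspond to 0.0498 to 0.0572 CPM, and both SK-MEL-5 groups lay under that floor.

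Between the untreated lines 34.5% of all genes were called higher and 37.2% lower in MALME-3M, and between the treated lines 35.4% and 36.4%. Of the members, 4 were higher (LEF1, SOX5, NGFR, AXL) and 3 lower (SOX9, TFAP2A, RXRG) untreated, and 5 higher (those and SOX10) and 3 lower treated. MITF and PAX3 were not called in either.

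Levels of different genes were compared per kilobase of merged exon, as CPM per kb. MITF and SOX10 led in every group: 83.6 ± 4.7 and 73.0 ± 3.9 in untreated SK-MEL-5, 84.2 ± 0.99 and 71.6 ± 3.2 in treated SK-MEL-5, 82.1 ± 3.6 and 74.6 ± 4.6 in untreated MALME-3M, and 86.6 ± 8.3 and 86.3 ± 3.5 in treated MALME-3M. Their ranges overlapped in both MALME-3M groups and not in SK-MEL-5. In SK-MEL-5 TFAP2A came next (29.2 ± 0.74 untreated, 40.9 ± 2.1 treated), then LEF1 (23.1 ± 1.2 and 24.4 ± 0.19). In MALME-3M LEF1 (64.0 ± 1.9 and 69.8 ± 3.8) stood above TFAP2A (23.8 ± 0.42 and 33.1 ± 0.69). RXRG was 5th of the 10 in untreated SK-MEL-5 (16.6 ± 0.70) and 7th in untreated MALME-3M (5.39 ± 0.021), where SOX5 was at 5.79 ± 0.36 and PAX3 at 10.8 ± 0.42. In treated SK-MEL-5, RXRG at 11 ± 0.43 and PAX3 at 12.3 ± 0.81 overlapped. AXL and NGFR were the lowest in SK-MEL-5, and SOX9 was the lowest in MALME-3M (0.0350 ± 0.036 and 0.0140 ± 0.015). By summed TPM of annotated transcripts, TFAP2A led in SK-MEL-5 (113 ± 19 untreated, against 96.5 ± 7.6 for MITF) and LEF1 in MALME-3M (120 ± 9.9 untreated, against 101 ± 5.8 for MITF), so the order of the leading 4 depends on the scale.

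Genes that MITF is known to drive were described by their counts, beside the share of all tested genes called. Of 18 pigment and melanosome targets, 16 were tested: 0 rose (0 also at an unadjusted edgeR p below 0.05 and by DESeq2) and 7 fell in SK-MEL-5 (median log2 fold change -0.10, against -0.03 over all genes, of which 5.98% rose and 7.05% fell), and 2 rose and 9 fell in MALME-3M (median -0.18, against 0.00 over all genes, of which 9.51% rose and 8.77% fell). MYO5A, the motor that carries melanosomes, fell in both lines, from 473 ± 5.6 to 340 ± 5.8 CPM in SK-MEL-5 (-0.48 ± 0.041, adjusted p = 6.61e-08) and from 526 ± 8.3 to 401 ± 15 in MALME-3M (-0.39 ± 0.041, adjusted p = 1.15e-06). The protease gene CAPN3 fell as well (-0.25 ± 0.049, adjusted p = 0.00151, and -0.39 ± 0.050, adjusted p = 1.63e-05). DCT, the dopachrome tautomerase of melanin synthesis, fell from 974 ± 13 to 705 ± 81 CPM in MALME-3M (-0.47 ± 0.059, adjusted p = 1.15e-05). In SK-MEL-5 its change of -0.18 ± 0.059 just passed (adjusted p = 0.0496) and was lost when any of 9 libraries was left out (highest adjusted p 0.160), and under upper-quartile (0.0553) or DESeq2's scaling (0.0507). MLANA, the melanosome antigen, fell in MALME-3M (-0.19 ± 0.054, adjusted p = 0.0209), a call lost without untreated library 3 (0.0794) or treated library 2 (0.0516) or 3 (0.0617).

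Tyrosinase, TYR, was not called with IFN-γ in either line (0.03 ± 0.046 and 0.11 ± 0.045), nor was TYRP1 (-0.13 ± 0.068 and -0.26 ± 0.11; without treated MALME-3M library 1 the latter was -0.40 with an adjusted p of 0.0115). Between the untreated lines TYR was higher in MALME-3M (438 ± 16 against 266 ± 12 CPM, 0.72 ± 0.046, adjusted p = 4.56e-11), DCT lower (974 ± 13 against 2470 ± 10 CPM), and TYRP1 lower by far, at 6.88 ± 0.60 against 517 ± 4.4 CPM (-6.23 ± 0.092, adjusted p = 2.94e-20). The risers in MALME-3M were the channel gene TRPM1 (104 ± 8.1 to 160 ± 18 CPM, 0.61 ± 0.080, adjusted p = 1.72e-05) and MLPH, the adaptor between melanosome and motor (564 ± 9.9 to 702 ± 15 CPM, 0.32 ± 0.047, adjusted p = 6.36e-05).

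Of 15 MITF targets outside pigment, all tested, 2 rose and 4 fell in SK-MEL-5 (median -0.07) and 3 rose and 9 fell in MALME-3M (median -0.23). Over all genes 5.98% rose and 7.05% fell in SK-MEL-5, and 9.51% rose and 8.77% fell in MALME-3M. The receptor gene MET fell from 409 ± 2.4 to 312 ± 0.39 CPM in SK-MEL-5 (-0.39 ± 0.043, adjusted p = 2.07e-06) and from 155 ± 1.1 to 92.8 ± 4.2 in MALME-3M (-0.74 ± 0.044, adjusted p = 2.61e-10). The acid ceramidase gene ASAH1 fell in MALME-3M (-0.43 ± 0.049, adjusted p = 3.16e-06). The risers included CEACAM1, an adhesion molecule (0.81 ± 0.060, adjusted p = 6.56e-09, and 1.54 ± 0.064, adjusted p = 8.6e-13), and IRF4, an interferon regulatory factor that works with MITF on TYR (0.55 ± 0.059, adjusted p = 1.68e-06, and 0.36 ± 0.059, adjusted p = 0.000219).

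**Figure D4:**
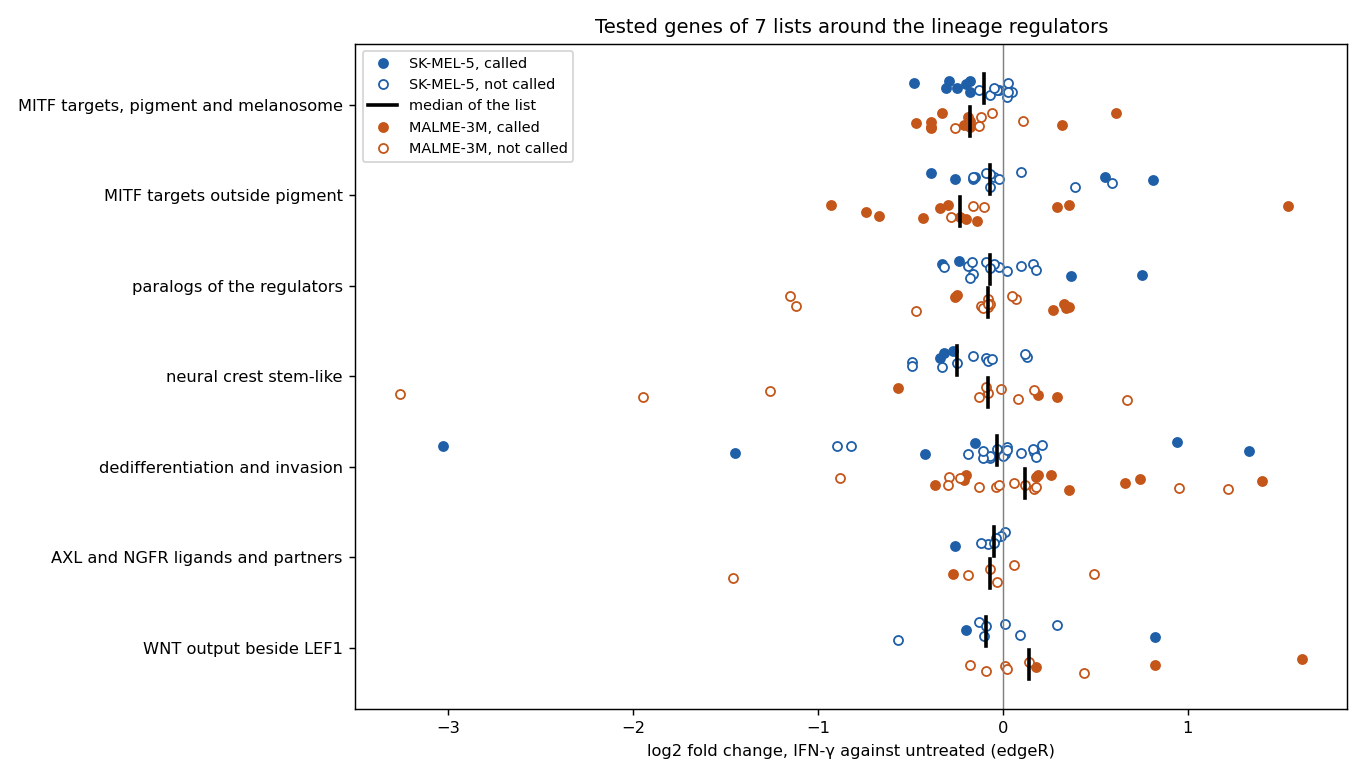
Log2 fold change with IFN-γ (edgeR) of each tested gene in 7 lists around the lineage regulators, SK-MEL-5 in blue and MALME-3M in orange; filled points are called, black bars are list medians, and vertical position within a row carries no value. The pigment targets have medians of -0.10 and -0.18.

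Of the members' relatives by sequence family, 17 of 21 were tested, with 2 higher and 2 lower in SK-MEL-5 and 4 higher and 2 lower in MALME-3M. The shares over all genes were 5.98% higher and 7.05% lower in SK-MEL-5, and 9.51% and 8.77% in MALME-3M. SOX13, of the SOX5 family, rose in both lines (0.75 ± 0.092, adjusted p = 9.36e-06, and 0.36 ± 0.079, adjusted p = 0.00305), and SOX6, of the same family, fell in SK-MEL-5 (-0.24 ± 0.057, adjusted p = 0.00712; without untreated library 3, 0.0538). TYRO3, a receptor kinase of the AXL family, fell in SK-MEL-5 (-0.33 ± 0.059, adjusted p = 0.000561), and MERTK, the remaining kinase of that family, fell in MALME-3M (-0.25 ± 0.057, adjusted p = 0.00451), as did SORT1, a sorting receptor that binds NGFR (-0.26 ± 0.056, adjusted p = 0.00254). TYRO3 was lower in MALME-3M, at 35.5 ± 2.7 against 88.7 ± 1.7 CPM (-1.32 ± 0.061, adjusted p = 3.36e-13), and MERTK at 70.2 ± 1.7 against 398 ± 8.2 (-2.51 ± 0.058, adjusted p = 9.49e-18). TFAP2C, the AP-2γ paralog of TFAP2A, was at 99.5 ± 2.0 CPM in untreated MALME-3M and 2.26 ± 0.32 in untreated SK-MEL-5 (5.44 ± 0.11, adjusted p = 9.98e-19), and SOX13 was also higher in MALME-3M (2.84 ± 0.090, adjusted p = 1.03e-15). TFAP2C and SOX13 were singled out for this comparison after their values were seen.

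Ligands and partners of AXL and NGFR had 7 of 12 listed genes tested, with 0 higher and 1 lower in each line (0 higher also at an unadjusted edgeR p below 0.05 and by DESeq2). That gene was ADAM10, the protease that sheds receptors including AXL (-0.26 ± 0.049, adjusted p = 0.000879, in SK-MEL-5 and -0.27 ± 0.048, adjusted p = 0.000486, in MALME-3M). Of all genes, 5.98% were called higher and 7.05% lower in SK-MEL-5, and 9.51% and 8.77% in MALME-3M. GAS6, the ligand of AXL, was lower in untreated MALME-3M, the line with AXL, than in untreated SK-MEL-5 (0.245 ± 0.066 against 9.28 ± 0.68 CPM, -5.19 ± 0.26, adjusted p = 1.25e-12).

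Of 11 WNT pathway genes listed beside LEF1, CTNNB1 among them, 9 were tested. With IFN-γ, 1 was higher and 1 lower in SK-MEL-5, against 5.98% and 7.05% of all genes. In MALME-3M 3 were higher and 0 lower, against 9.51% and 8.77% (0 lower also at an unadjusted edgeR p below 0.05 and by DESeq2). Between the untreated lines 2 were higher and 5 lower in MALME-3M, against 34.5% and 37.2% of all genes. AXIN2, a feedback gene of the pathway, was among the higher, at 4.57 ± 0.16 against 1.29 ± 0.15 CPM (1.83 ± 0.22, adjusted p = 4.46e-07), as LEF1 was. CTNNB1, which encodes β-catenin, was lower, at 374 ± 9.5 against 1030 ± 32 CPM (-1.47 ± 0.044, adjusted p = 4.65e-16). Opposite to AXIN2, NKD1 had 0.1 ± 0.092 CPM in MALME-3M against 6.44 ± 0.35, and TNFRSF19 28.7 ± 2.0 against 208 ± 4.0. NKD1 and TNFRSF19 were named after their values were seen. With IFN-γ AXIN2 rose in SK-MEL-5 (0.82 ± 0.23, adjusted p = 0.0236), a call lost in a fit to the SK-MEL-5 libraries alone (0.0728) or without untreated library 2 (0.0816) or 3 (0.0811) or treated library 1 (0.126) or 3 (0.0816). CTNNB1 rose in MALME-3M (0.18 ± 0.043, adjusted p = 0.00707; without treated library 1, 0.0537).

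The dedifferentiation and invasion list had 23 of 25 genes tested, with 2 higher and 4 lower in SK-MEL-5 (median -0.03) and 7 higher and 3 lower in MALME-3M (median 0.12). With IFN-γ, 5.98% of all genes were called higher and 7.05% lower in SK-MEL-5, and 9.51% and 8.77% in MALME-3M. TNC, a matrix glycoprotein, rose in both lines, from 321 ± 10 to 807 ± 2.5 CPM (1.33 ± 0.049, adjusted p = 1.43e-13) and from 784 ± 19 to 2070 ± 150 CPM (1.40 ± 0.049, adjusted p = 4.96e-14). FN1, fibronectin, rose in MALME-3M (0.66 ± 0.040, adjusted p = 3.61e-10), and the kinase gene NUAK1 in both lines (0.94 ± 0.19, adjusted p = 0.00180, and 0.74 ± 0.14, adjusted p = 0.000918). The matrix gene SPARC fell in MALME-3M (-0.37 ± 0.043, adjusted p = 4.29e-06) and N-cadherin, CDH2, in SK-MEL-5 from a low level, 3.80 ± 0.52 to 1.38 ± 0.077 CPM (-1.45 ± 0.14, adjusted p = 5.2e-07). Between the untreated lines, where AXL was higher in MALME-3M, 11 of the 23 were higher there and 8 lower, against 34.5% and 37.2% of all genes. CDH1, which encodes E-cadherin and is known for loss rather than gain in dedifferentiated cells, was among the 11, at 381 ± 0.49 against 4.05 ± 4.7 CPM. EGFR was lower there (0.405 ± 0.12 against 15.2 ± 1.6 CPM) and so was ZEB1 (5.22 ± 1.2 against 47.3 ± 0.99 CPM). WNT5A (1.21 ± 0.17 against 10 ± 0.49), IL6 (0.696 ± 0.17 against 12.2 ± 0.83) and JUN (9.62 ± 0.72 against 42.4 ± 3.6) also had lower CPM there. Other list genes had higher CPM there: CDH2 (55.0 ± 2.8 against 3.80 ± 0.52), NT5E (94.0 ± 0.41 against 9.63 ± 0.6), FOSL1 (88.3 ± 4.1 against 21.4 ± 2.0) and VIM (4020 ± 120 against 1340 ± 49). The genes named for this comparison, CDH1 among them, were singled out after their values were seen. The list's median log2 fold change between the untreated lines was 0.70, against -0.016 over all genes. The list of neural crest stem-like genes, without NGFR and RXRG themselves, had 13 of 15 genes tested. With IFN-γ, 0 were higher and 3 lower in SK-MEL-5 (0 higher also at an unadjusted edgeR p below 0.05 and by DESeq2, median -0.25). In MALME-3M 2 were higher and 1 lower (median -0.08). Between the untreated lines 4 were higher and 7 lower in MALME-3M (median -0.75), against 34.5% and 37.2% of all genes. S100B fell in SK-MEL-5 (-0.34 ± 0.051, adjusted p = 0.000116) and the receptor gene ERBB3 rose in MALME-3M (0.29 ± 0.043, adjusted p = 7.07e-05).

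In sums of annotated transcripts several of these list genes lost their calls with IFN-γ: DCT, IRF4, MET, SOX13, TYRO3, SOX6, CDH2, ADAM10 and AXIN2 in SK-MEL-5, and IRF4, SOX13, SORT1 and MERTK in MALME-3M. AXIN2 lost its call between the untreated lines as well (1.23, adjusted p = 0.0761).

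The genes most like 4 members over the 12 libraries were found by Pearson's r of log2 CPM, as a description over libraries that share line and treatment. For MITF they were GPBP1 (0.829), KIAA0895 (0.797) and RPE (0.792), and 0 of 11638 genes passed 0.9. SCNM1, SPCS2 and IL13RA2 were nearest to SOX9 (0.997, 0.996 and 0.996), where 2630 genes passed 0.9, and NR3C1, PPP1R37 and ATXN7L1 nearest to AXL (0.995, 0.994 and 0.991), where 2131 did. For NGFR, high in 1 group of 4, they were ELMSAN1 (0.984), ITPKC (0.975) and ARSD (0.974), with 147 genes past 0.9.

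As a check of the treatment, 6 of 6 interferon-response genes rose in both lines, among them IRF1 (5.35 ± 0.11 and 6.43 ± 0.12). Gene counts totalled 15514412 to 22921184 per library. The sum of 6 melanocyte markers was 4880 to 5530 CPM over all libraries, with 0 of the 6 at 0 in any group. Markers of other cells were lower: 8 fibroblast genes summed to 130 to 189 CPM in SK-MEL-5 and 14.5 to 19.2 in MALME-3M, 6 keratinocyte genes to 12.3 to 21.5, 6 leukocyte genes to 0.468 to 1.63, and 5 endothelial genes to 12.8 to 43.1. The fibroblast sum was mostly LUM (161 ± 15 and 125 ± 2.7 CPM in untreated and treated SK-MEL-5, 13.1 ± 1.7 and 8.55 ± 1.4 in MALME-3M), the keratinocyte sum mostly KRT10 and the endothelial sum mostly KDR. DCN had 8.94 ± 0.62 and 7.52 ± 0.99 CPM in untreated and treated SK-MEL-5, and 3.81 ± 1.3 and 3.01 ± 0.3 in MALME-3M. COL1A2 had 1.52 ± 0.19 and 3.74 ± 1.1 CPM in untreated and treated MALME-3M, and 0 and 0.0886 ± 0.051 in SK-MEL-5. COL1A1, COL3A1, PDGFRA, POSTN and THY1, the remaining fibroblast markers, had group means of at most 0.828 CPM. No marker of these lists was at 0 in all 12 libraries. Their part in the differences between the lines was not tested.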

How the data were processed

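Counts of 12 libraries were compared, 3 per line and treatment. The authors deposited raw counts per gene symbol for each library, ending in HTSeq's summary lines, and, per the file headers, an estimated count and a TPM value for each transcript. Tools named in the submitters' processing notes are HTSeq, kallisto, SAMtools, STAR and cutadapt, and the build is hg38. The counting annotation and strand setting were not given in the sources used here, and neither was handling of molecular identifiers. Floors and the Clopper-Pearson intervals of count ratios describe counting error alone; the intervals of log2 fold changes come from the edgeR fit and include the spread between libraries.

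Gene counts were tested with edgeR 4.0.16 in R 4.3.3. The filter was filterByExpr (minimum count 10), the scaling TMM, and the 12 libraries shared 1 quasi-likelihood model with 4 group means. Calls used a Benjamini-Hochberg adjusted p below 0.05 over all 15810 genes. The SE is the log2 fold change over the square root of F; it understates the error where a group has few counts. Depths of 15514412 to 22921184 gene counts put 3 counts over a group at 0.0498 to 0.0572 CPM. The start-site fit was added after the data were seen. DESeq2 1.42.0, other scalings, no filter, fits to the compared groups only, transcript sums and leaving out each library were the alternatives.

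Annotated transcripts were tied to genes and start sites with GENCODE 29; their estimated counts were rounded to whole numbers for testing. Of 361686 transcripts, 200989 were assembled and not used. The members and all lists were chosen with earlier results of these data known. Beyond the members, up to 4 genes per list were named by role and up to 2 per list and direction by smallest adjusted p in a line. Some genes this rule allowed, with calls that hung on single libraries, appear in counts only, a choice made after their values were seen. Also named were the 3 genes nearest to MITF, SOX9, NGFR and AXL with a mean log2 CPM of at least 1. Some genes of the lists are not reported here by name.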

Additional observations from a re-analysis of the deposited data

Results flagged for a closer look

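The change with IFN-γ differed between the lines, by the edgeR test of the difference (MALME-3M minus SK-MEL-5), for 2 members. Over all genes the difference was called above 0 for 2.67% and below 0 for 1.79%. RXRG had a difference of 0.56 on the log2 scale (adjusted p = 0.00773), with 44.8 ± 1.9 to 29.6 ± 1.2 CPM in SK-MEL-5 and 14.5 ± 0.042 to 14.2 ± 1.4 in MALME-3M. SOX5 had a difference of 0.40 (adjusted p = 0.0159), with 47.4 ± 3.9 to 35.2 ± 0.90 CPM in SK-MEL-5 and 60.4 ± 3.8 to 59.1 ± 1.5 in MALME-3M. Doses also differed between the lines.

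The shares of all genes to set beside the lists are again 2.67% above 0 and 1.79% below. Among MITF targets 2 of 16 pigment genes had a called difference above 0 and 1 below, and of 15 outside pigment 1 above and 3 below. It was 0.58 for TRPM1 (adjusted p = 0.00386), 0.34 for MLPH (adjusted p = 0.00505) and 0.73 for CEACAM1 (adjusted p = 2.73e-05), and -0.35 for MET (adjusted p = 0.00170), -0.36 for ASAH1 (adjusted p = 0.00364), -0.29 for OCA2 (adjusted p = 0.0126) and -0.44 for BCL2A1 (adjusted p = 0.0199). OCA2 and BCL2A1 were named after their values were seen. The call of BCL2A1 was lost without untreated library 3 (0.0607) or treated library 2 (0.0679) of SK-MEL-5 or untreated library 1 (0.0506) or treated library 2 (0.0611) of MALME-3M. In the neural crest list it was 0.53 for S100B (adjusted p = 0.000127), which went from 167 ± 8.5 to 132 ± 6.9 CPM in SK-MEL-5 and from 646 ± 21 to 737 ± 28 in MALME-3M, and 0.38 for ERBB3 (adjusted p = 0.00065). In the dedifferentiation list it was 1.41 for CDH2 (adjusted p = 2.15e-05), at 55.0 ± 2.8 and 53.5 ± 3.3 CPM in MALME-3M, and 0.56 for FN1 (adjusted p = 4.49e-06), at 1910 ± 37 and 2050 ± 41 CPM in SK-MEL-5 and 1170 ± 30 and 1860 ± 73 in MALME-3M. IRF1, a check of the treatment, differed by 1.08 (adjusted p = 0.000541). With sums of annotated transcripts the differences of RXRG, SOX5, TRPM1, MET, OCA2, ERBB3, CDH2, FN1 and IRF1 kept their sign and were not called.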

How the results depend on the processing

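No paired analysis was possible because the labels carry no replicate numbers. Of 783 values of single members under an alternative, 723 kept their direction and side of the threshold. Of the rest, 18 lost a call, 8 gained one and 34 changed sign, and a value that changed sign was counted only as such. Among the latter, MITF between untreated lines was called with transcript sums (0.54, edgeR adjusted p = 2.84e-05). No member called in the main fit changed sign. The count of members higher in SK-MEL-5 was 2 with DESeq2 (PAX3 added) and 1 to 2 without a library; the count lower there was 1 with transcript sums and 2 without any one library. Members higher in MALME-3M numbered 2 to 4 without a library, 2 without untreated library 2 or treated library 3, when SOX10 and PAX3 were both lost. Members with a called difference of changes numbered 0 with transcript sums and 1 to 3 without a library, 1 without treated MALME-3M library 3. Transcript sums gave no value for SOX9 in MALME-3M, at 0 estimated counts in all 6 libraries. With them, signs changed for MITF in SK-MEL-5 (-0.01), SOX10 in SK-MEL-5 (0.05), NGFR in SK-MEL-5 (-0.17), TYRP1 in MALME-3M (0.23), PAX3 between treated lines (-0.13) and MITF between untreated lines (0.54); with only the groups compared, for SOX10 (0.01) and SOX9 (0.01) in SK-MEL-5. Leaving out libraries gave, with IFN-γ in SK-MEL-5, -0.04 to 0.04 for MITF, -0.07 to 0.01 for SOX10, -0.11 to 0.04 for SOX9, -0.12 to 0.73 for NGFR and -1.86 to 2.71 for AXL; in MALME-3M, -0.09 to 0.02 for RXRG and -0.07 to 0.02 for SOX5; between untreated lines, -0.08 to 0.02 for MITF, -0.03 to 0.06 for PAX3 and -0.02 to 0.08 for SOX10; between treated lines, -0.02 to 0.11 for MITF and -0.03 to 0.06 for PAX3. The difference of changes of SOX10 ranged from 0.15 to 0.29 and passed without untreated MALME-3M library 1 (adjusted p = 0.0483) and without the filter (0.0428). The M-start share of MITF was 90.0%, 90.7%, 71.2% and 70.4% by TPM (SK-MEL-5 without and with IFN-γ, then MALME-3M likewise); the level of MITF over SOX10 was 1.64, 1.61, 1.80 and 1.69 by summed TPM, against 1.15, 1.18, 1.10 and 1.00 per kilobase. Without treated MALME-3M library 1 or 3 the median of all genes in SK-MEL-5 moved from -0.03 to 0.00 and genes called lower there from 1114 to 789 or 849. Over all genes, transcript sums called 396 higher and 176 lower in SK-MEL-5 (946 and 1114 by gene counts), 527 and 415 in MALME-3M (1504 and 1386), 3743 lower between untreated lines (5877), 3653 higher and 3758 lower between treated lines (5597 and 5749), and 68 and 69 differences of changes (422 and 283). DESeq2 called 426 such differences below 0. Genes lower in SK-MEL-5 numbered 655 without untreated library 2 and 665 without treated library 3, and differences above 0 numbered 275 and 240 without treated MALME-3M library 1 or 3. The cause was not tested for any of these. Depth limits NGFR, AXL and, in MALME-3M, SOX9.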
